A study of Mus musculus with 24 samples.

Results

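The ischemic gastrocnemius and the adductor of control mice were compared across all genes, using 12 of the 24 libraries of the series, 6 from each muscle. The 12 were chosen by their titles. All came from control C57BL/6 mice 7 days after 1 femoral artery was ligated, below the branch that supplies the deep thigh. The adductor of the thigh was labelled normoxic and the gastrocnemius of the calf ischemic. The other 12 libraries came from mice with type 2 diabetes after the same operation. No label gives animal numbers, age, sex or pooling, so the p-values cover the spread among these libraries, which may be technical. Ischemia and the identity of the muscle cannot be told apart here, since each muscle was sampled in 1 state, and every animal had been operated on.

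Ligation of the femoral artery sends blood through collateral arteries of the thigh, which widen, while the calf is left short of oxygen and its fibres may die. Skeletal muscle replaces dead fibres from satellite cells, resident stem cells that divide, become myoblasts and fuse into new fibres, which pass through embryonic forms of myosin and troponin. Macrophages clear debris and fibroblasts lay down matrix while this goes on. The gastrocnemius and the adductor of the mouse are both made mainly of fast fibres.

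Levels are in RPKM, the reads of a transcript divided by its exon length in kb and by the library total in M. For each gene the lowest, the median and the highest RPKM of the 6 libraries of a muscle are given in that order. Differences are gastrocnemius minus adductor on the log2(RPKM + 0.5) scale, ± the standard error of limma, a linear model fitted across all genes. A scale factor per library, the median over genes of the ratio to the gene's mean over libraries (median of ratios), gave a second set of values, called scaled. "Rose" and "fell" are used only of genes with a limma adjusted p under 0.05 and the same direction on both scales, with respect to the adductor. Genes were tested if they had at least 1 RPKM in at least 6 of the 24 libraries. A gene is called detected in the adductor if it had that level in at least 6 of the 12 adductor libraries of the series, a division made after the values were seen. Of the 12382 tested genes 2199 were not, and passed only with the help of the gastrocnemius. The rise of such genes, and a lack of overlap between the muscles, is partly set by the filter wherever they are named below. Of the 10183 detected genes 2100 rose (20.6%), and counts over the detected members are given beside the counts over a list. In bulk tissue, fewer cells of a type and less RNA per cell cannot be told apart.

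The 12 libraries held 8.48 to 15.61 M reads, and 3 reads on a transcript of 1 kb, the floor used for a count of 0, corresponded to 0.192 to 0.354 RPKM. The first principal component (63.4% of the variance) set the muscles apart, and the second (26.1%) set libraries 1 to 3 apart from libraries 4 to 6 of both muscles. These sets are not named in the labels. The glycolytic gene Gapdh lay between 677 and 1743 RPKM in the first set and between 0.365 and 0.831 RPKM in the second. Each set held 3 libraries of each muscle. The skeletal fibre markers Myh4 and Atp2a1 were among the most abundant transcripts of both muscles.

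Single libraries of each muscle stood apart. Adductor 2 lay at -26.5 on the first component against -87.8 to -63.3 for the other 5, and gastrocnemius 3 at 18.5 against 53.6 to 115.4. Each was displaced toward the other muscle. Adductor 2 was the highest adductor library for 73.8% of the 3505 genes that rose, and gastrocnemius 3 the lowest gastrocnemius library for 72.4%. For the 1077 genes that fell, gastrocnemius 3 was the highest of its muscle in 81.3% and adductor 2 the lowest of its own in 25.4%. Without these 2 libraries 6736 genes were called higher and 1163 lower on raw RPKM, of which 7700 were among the calls with all 12.

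**Figure D1:**
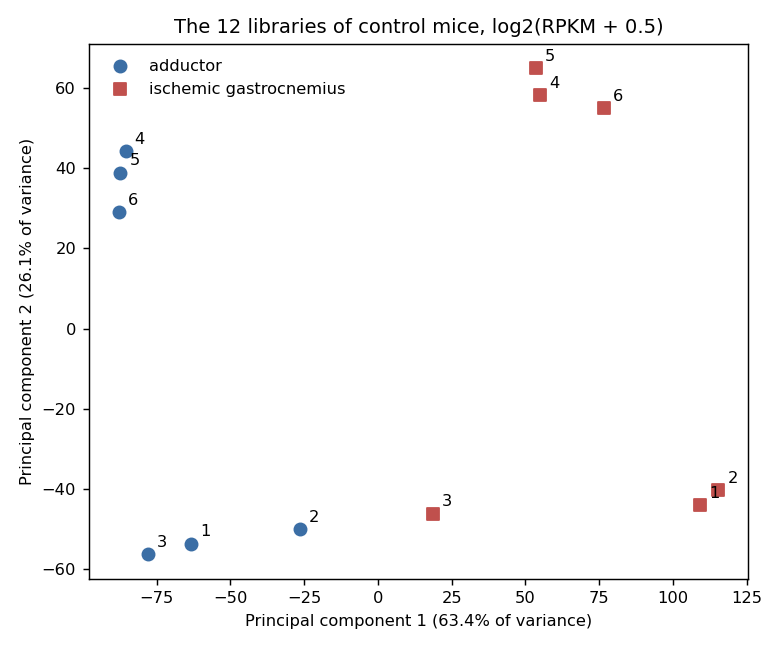
Principal components of log2(RPKM + 0.5) over the 12382 tested genes for the 12 libraries of control mice, numbered by replicate. The horizontal axis (63.4% of variance) separates adductor (circles) from ischemic gastrocnemius (squares), with adductor 2 at -26.5 and gastrocnemius 3 at 18.5 nearest to each other, and the vertical axis (26.1%) separates libraries 1 to 3 from 4 to 6.

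The muscles differed in how their RNA was spread over transcripts. The 10 most abundant transcripts of each library, chosen in that library, took 24.3 ± 2.49% of the reads in the adductor and 15.0 ± 4.28% in the gastrocnemius (SD, n = 6, exact two-sided permutation p = 0.00216, the smallest that 6 against 6 allows). Every adductor library, at 21.5 to 28.8%, lay above every gastrocnemius library, at 9.88 to 19.4%. The difference was -13.0 percentage points in libraries 1 to 3 and -5.63 in libraries 4 to 6. On average over the adductor libraries the leading transcripts were Rn45s, Myh4, Acta1, Atp2a1, Ckm, Ttn, Aldoa, Tpm1, Tnnt3 and Lars2. These 10 took 23.7 ± 2.89% of adductor and 13.7 ± 5.35% of gastrocnemius reads, a difference that their choice in the adductor favours and that is given as a description. Rn45s, the precursor of ribosomal RNA, ranked 1 in both muscles, with 5.89 ± 3.61% of adductor and 6.27 ± 2.80% of gastrocnemius reads. The shares in the top transcripts are therefore not of muscle mRNA alone. The number of transcripts that together held 50% of the reads was 70.8 ± 20.9 in the adductor and 415 ± 225 in the gastrocnemius (exact permutation p = 0.00216). Myh4, the fast IIB myosin heavy chain, took 3.25 ± 0.581% of adductor reads and 0.836 ± 0.647% of gastrocnemius reads. Col1a1, the alpha 1 chain of type I collagen, ranked 201 in the adductor with 0.0347 ± 0.0470% and 5 in the gastrocnemius with 0.746 ± 0.440%. The noncoding RNA H19 moved from rank 83 to rank 8.

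**Figure D2:**
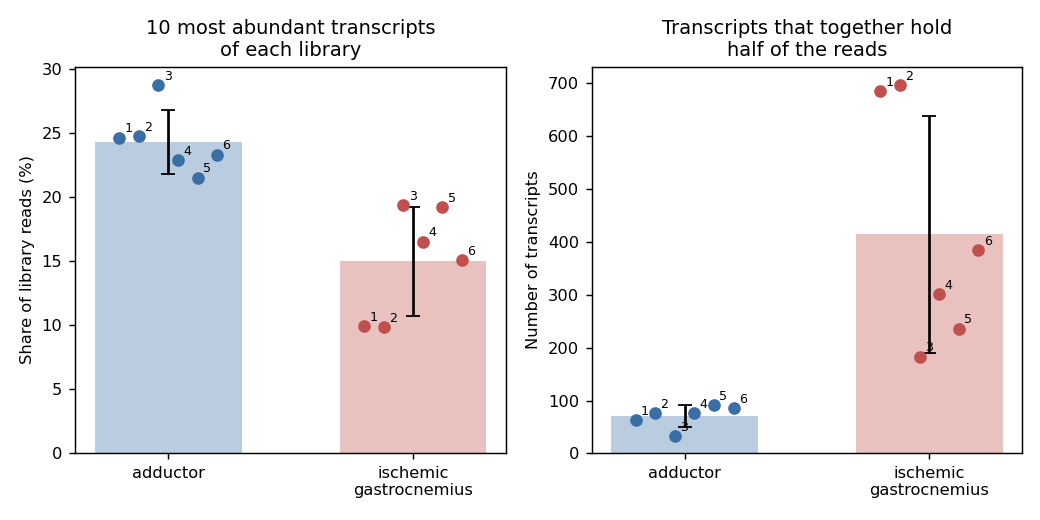
Left, share of library reads (%) in the 10 most abundant transcripts of each library. Right, number of transcripts that together hold 50% of the reads. Points are libraries numbered by replicate, bars the mean of 6 and whiskers 1 SD. On the left all adductor libraries (21.5 to 28.8%) lie above all gastrocnemius libraries (9.88 to 19.4%), and on the right all lie below (33 to 91 against 183 to 697).

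RPKM shares 1 total among all genes, and the balance of the calls depended on the scale. On raw RPKM 6730 of the 12382 tested genes (54.4%) were called higher in the gastrocnemius and 1077 (8.70%) lower, so that 63.1% were called in all, 86.2% of the called genes were higher, and the median difference over all genes was 0.66. Median-of-ratios factors multiplied adductor values by 1.31 ± 0.116 and gastrocnemius values by 0.753 ± 0.122 (SD, n = 6), with no overlap. On scaled RPKM 3505 genes (28.3%) were called higher and 3285 (26.5%) lower, 54.8% in all, 51.6% of the called genes were higher, and the median was -0.02. The scaling moved differences by -0.72 (median over genes). All 3505 and all 1077 were called in the same direction on both scales, 3146 genes were called higher on raw RPKM alone, 2129 lower on scaled RPKM alone, and 79 changed from higher to lower. The deposited data do not show which scale is closer to RNA per cell. Read against these backgrounds, 28.3% of all tested genes rose and 8.70% fell on both scales, and groups of 6 libraries did not overlap on raw RPKM for 33.3% of genes with the gastrocnemius above and for 3.0% with it below.

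**Figure D3:**
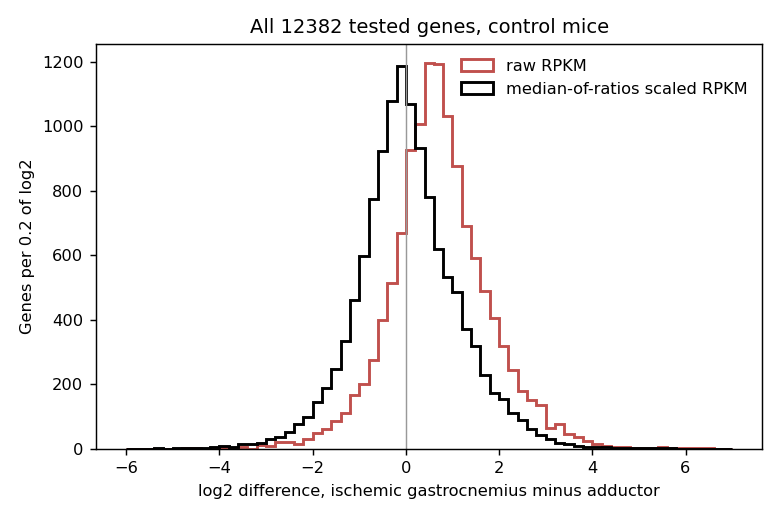
Number of genes per 0.2 of log2 difference (gastrocnemius minus adductor) for the 12382 tested genes, on raw RPKM (red) and on scaled RPKM (black). The raw distribution is centred at 0.66 and the scaled one at -0.02.

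The 10 genes with the largest rise, among those of at least 5 RPKM in the higher muscle whose groups did not overlap, included genes of the matrix, of phagocytes and of forming fibres. Postn, which encodes the matricellular protein periostin, had 2.62, 3.51 and 89.04 RPKM in the adductor and 285, 626 and 1099.6 RPKM in the gastrocnemius, a difference of 6.48 ± 0.63 (limma adjusted p = 2.97e-08) and 5.71 scaled. All 6 gastrocnemius libraries exceeded all adductor libraries, and adductor 2, the highest of its muscle, set the upper adductor value. Tmem8c, whose product myomaker drives myoblast fusion, had 0, 0.811 and 11.5 RPKM in the adductor and 30.6, 163 and 235 RPKM in the gastrocnemius (6.41 ± 0.58, 5.79 scaled). Adductor 3 was listed at 0 for this gene. Spp1, osteopontin of macrophages and matrix, had 0.531, 1.24 and 12.9 RPKM in the adductor and 34.1, 186 and 345 RPKM in the gastrocnemius (6.24 ± 0.59). Tnc, the matrix glycoprotein tenascin C of healing tissue, had 0.262, 0.383 and 6.58 RPKM in the adductor and 14.4, 79.6 and 227 RPKM in the gastrocnemius (5.89 ± 0.64). For both, gastrocnemius 3 was the lowest library of its muscle and still above every adductor library.

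The imprinted gene Mest, expressed in growing mesoderm, went from a median of 1.33 to 198 RPKM (6.18 ± 0.54). Secreted proteins of collagen-producing cells were represented by Cthrc1, at a median of 0.310 to 92.8 RPKM, and by C1qtnf3, at 0.330 to 75.8 RPKM. Cardiac troponin T, Tnnt2, and the atrial and embryonic light chain Myl4, both carried by immature skeletal fibres, had medians of 2.45 to 223 RPKM and 8.49 to 628 RPKM. The collagenase Mmp13 had 0, 0.0707 and 0.392 RPKM in the adductor and 16.5, 25.6 and 49.97 RPKM in the gastrocnemius (5.57 ± 0.30). Across the 10 genes adductor 2 was the highest adductor library in 10 and gastrocnemius 3 the lowest gastrocnemius library in 9. Their differences ran from 5.57 to 6.48 raw, from 4.86 to 5.79 scaled and from 5.55 to 7.44 raw without those 2 libraries. Within libraries 1 to 3 they were 4.73 to 5.92 and within libraries 4 to 6 they were 5.82 to 7.29. Mmp13 was under 1 RPKM in every adductor library of control mice, and Tmem8c, Tnc, Cthrc1 and C1qtnf3 in all but adductor 2. For these genes the rise and the lack of overlap may be partly set by the filter.

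The 10 genes with the largest fall, by the same rule, encode proteins of several kinds. Scn4b, a beta subunit of voltage-gated sodium channels, had 92.1, 102 and 139.8 RPKM in the adductor and 1.40, 2.24 and 47.7 RPKM in the gastrocnemius, a difference of -4.66 ± 0.66 (limma adjusted p = 2.34e-06) and -5.37 scaled. Gastrocnemius 3 gave the highest value of its muscle, and the other 5 libraries were at 3.87 RPKM or lower. Mylk4, of the myosin light chain kinase family, had 159, 228 and 299 RPKM in the adductor and 7.28, 9.75 and 149 RPKM in the gastrocnemius (-3.84 ± 0.65). Aqp4, the water channel of the fast fibre membrane, had 6.40, 9.47 and 10.7 RPKM in the adductor and 0.0502, 0.148 and 2.19 RPKM in the gastrocnemius (-3.60 ± 0.42). These groups did not overlap for either gene. The phospholipase Plcd4 went from a median of 34.1 to 1.16 RPKM, the tubulin Tuba8 from 107 to 7.48 RPKM and the tetraspanin Tspan8 from 34.04 to 1.36 RPKM. The carboxylesterase Ces1d, the potassium channel subunit Kcng4, the amylase Amy1 and the small GTPase Rasd2 had differences of -3.72 ± 0.64, -3.47 ± 0.46, -3.46 ± 0.44 and -3.44 ± 0.62. Amylase genes are close copies that can share reads, which makes the value of Amy1 uncertain. Gastrocnemius 3 was the highest gastrocnemius library for all 10 genes, whose differences ran from -4.66 to -3.44 raw and from -5.38 to -3.93 without adductor 2 and gastrocnemius 3.

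Genes of forming muscle fibres were high in the gastrocnemius. Of 9 tested genes of the embryonic sarcomere 8 rose, and of 12 myogenic and fusion factors 10 rose (4 of 6 detected in the adductor). Their median differences were 3.86 raw and 3.08 scaled for the sarcomere genes and 2.54 raw and 2.01 scaled for the factors. Myh8, the perinatal myosin heavy chain, had 3.003, 3.82 and 35.5 RPKM in the adductor and 219, 264 and 313 RPKM in the gastrocnemius (5.46 ± 0.41, 4.69 scaled). Myh3, the embryonic myosin heavy chain, had 0.807, 11.8 and 52.1 RPKM in the adductor and 148, 238 and 395 RPKM in the gastrocnemius (5.04 ± 0.83). The groups did not overlap for either, but Myh3 differed by 3.18 in libraries 1 to 3 and 6.90 in libraries 4 to 6. Myosin heavy chain genes are similar enough to share reads, and no source used here says how such reads were counted.

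Myog, the transcription factor myogenin that turns on differentiation, had 1.59, 3.85 and 12.2 RPKM in the adductor and 37.8, 153 and 276 RPKM in the gastrocnemius (4.97 ± 0.46, limma adjusted p = 1.50e-08, 4.22 scaled). Adductor 2, at 12.2 RPKM, was the highest of its muscle and gastrocnemius 3, at 37.8 RPKM, the lowest of its own, without overlap. Gm7325, whose product is the second fusion protein of myoblasts, myomixer, went from a median of 0.118 to 41.7 RPKM (5.56 ± 0.50). Msc, a repressor of myogenic genes, had a median of 0.416 to 8.85 RPKM (3.34 ± 0.33). Pax7, which marks satellite cells, was low in both muscles, at 0.0218, 0.574 and 1.23 RPKM in the adductor and 0.745, 2.22 and 6.99 RPKM in the gastrocnemius (1.75 ± 0.46), and its groups overlapped. Of the other members, Mef2c and Myf6 were not called on raw RPKM and Mef2c was called lower on scaled RPKM. Without adductor 2 and gastrocnemius 3 the median differences were 4.08 for the sarcomere genes and 2.81 for the factors, and in libraries 1 to 3 and 4 to 6 they were 3.18 and 4.27 and 2.66 and 2.49.

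Subunits of the acetylcholine receptor of the nerve-muscle contact differed by form. Chrng, the gamma subunit of the fetal receptor, had 0, 0.0834 and 1.16 RPKM in the adductor and 5.98, 34.4 and 40.99 RPKM in the gastrocnemius, a difference of 5.29 ± 0.43 (limma adjusted p = 4.96e-09) and 4.83 scaled. The shared subunits Chrna1, Chrnd and Chrnb1 rose from medians of 4.55 to 97.05 RPKM, 0.623 to 14.5 RPKM and 17.6 to 47.6 RPKM. All 4 had groups that did not overlap. Chrng and Chrnd were not detected in the adductor by the rule above, so their rise and lack of overlap may be partly set by the filter. Chrne, the subunit of the adult receptor, was not called on raw RPKM and was called lower on scaled RPKM. Of 11 genes of the neuromuscular junction 4 rose on both scales (2 of 9 detected) and 7 were called higher on raw RPKM. Over all tested genes 28.3% rose (20.6% of those detected) and 54.4% were called higher on raw RPKM. As a group these genes were therefore near the background.

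The bases before the start of Chrng, Chrna1, Tnnt2, Myog and Myh3, which all rose, were searched for the motif CAGCTG. Myogenin, the product of Myog, binds motifs of this kind. Only windows that hold the motif are shown, and its part in the rise was not tested. The sequences are the 250 bases before the start in RefSeq on GRCm38.p6, with each CAGCTG, an E-box that reads the same on both strands, in capitals. The windows are chr1:87205561-87205810 on the plus strand for Chrng, chr2:73580339-73580588 on the minus strand for Chrna1 and chr1:135836084-135836333 on the plus strand for Tnnt2.
Chrng: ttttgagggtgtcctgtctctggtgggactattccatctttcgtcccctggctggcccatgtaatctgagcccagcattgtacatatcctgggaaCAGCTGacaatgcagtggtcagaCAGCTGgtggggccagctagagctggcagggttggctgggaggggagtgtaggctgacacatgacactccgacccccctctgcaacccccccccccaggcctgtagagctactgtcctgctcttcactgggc
Chrna1: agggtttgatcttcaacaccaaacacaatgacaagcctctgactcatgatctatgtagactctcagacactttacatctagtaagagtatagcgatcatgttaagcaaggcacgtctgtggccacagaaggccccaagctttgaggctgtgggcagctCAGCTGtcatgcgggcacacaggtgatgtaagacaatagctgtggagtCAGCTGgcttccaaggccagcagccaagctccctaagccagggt
Tnnt2: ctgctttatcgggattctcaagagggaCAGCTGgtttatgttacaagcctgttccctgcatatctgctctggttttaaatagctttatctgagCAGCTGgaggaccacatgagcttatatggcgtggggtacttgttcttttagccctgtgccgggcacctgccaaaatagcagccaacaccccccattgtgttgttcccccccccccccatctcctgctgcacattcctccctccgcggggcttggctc
Each holds 2 copies, which start 155 and 132 bases before the gene's start for Chrng, 92 and 44 for Chrna1, and 223 and 157 for Tnnt2. Of 32851 such windows 4271 (13.0%) hold at least 1 copy and 414 (1.26%) at least 2. Another RefSeq start of Tnnt2, and the windows of Myog and Myh3, hold none. The motif was chosen after the values were seen, and a match is not a bound site.

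**Figure D4:**
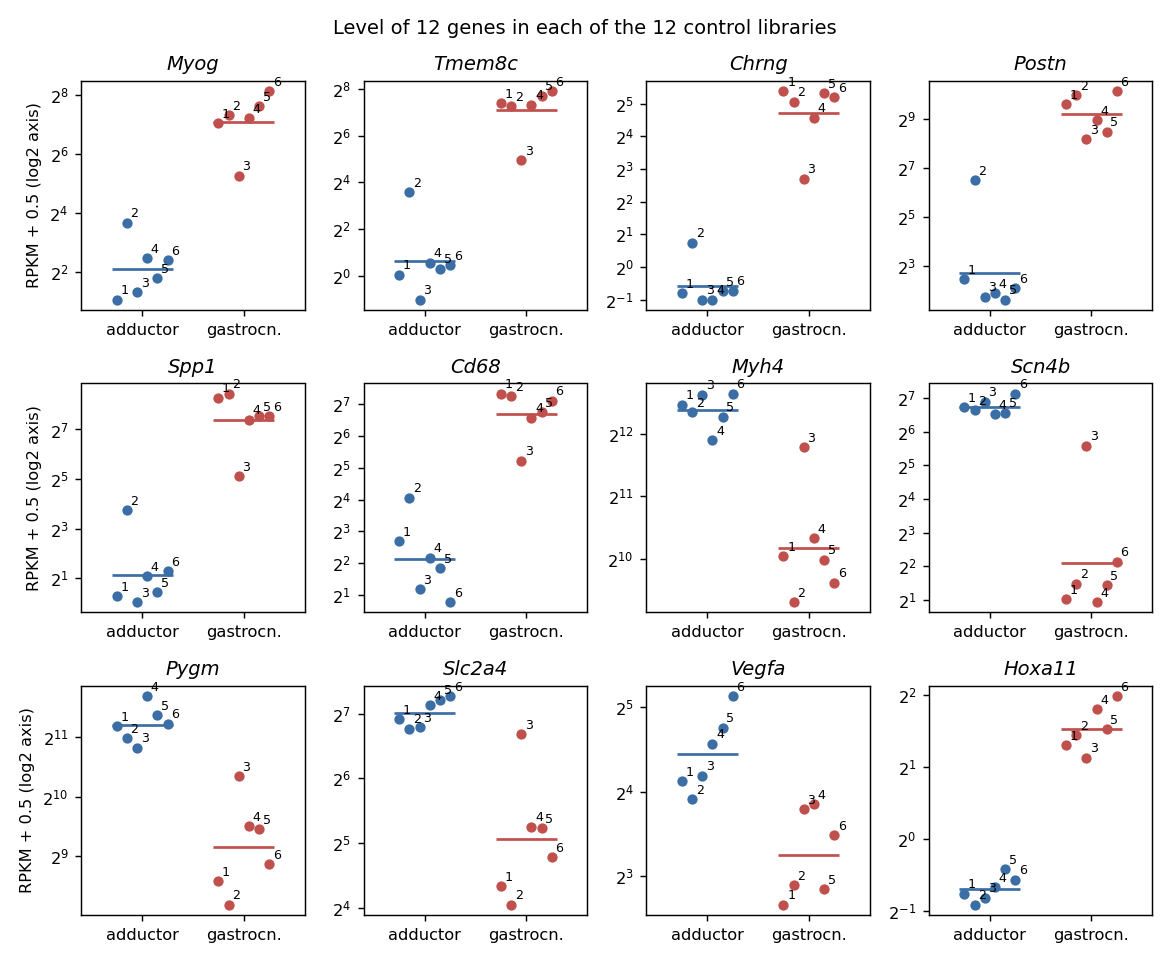
RPKM + 0.5 on a log2 axis for 12 genes in each of the 6 adductor (blue) and 6 gastrocnemius (red) libraries, numbered by replicate, with a line at the mean of the log2 values. For the top row and Spp1, Cd68 and Hoxa11 all gastrocnemius points lie above all adductor points, and for Myh4, Scn4b, Pygm, Slc2a4 and Vegfa all lie below. Adductor 2 and gastrocnemius 3 lie nearest to the other muscle for several genes.

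Genes of the mature contractile apparatus were lower. Of 13 fast fibre genes 8 fell, with a median difference of -1.42 raw and -2.22 scaled, and of 14 genes of excitation-contraction coupling 11 fell (-1.50 raw and -2.29 scaled). Myh4 had 3803, 5432 and 6367 RPKM in the adductor and 635, 1037 and 3524 RPKM in the gastrocnemius (-2.19 ± 0.37, -3.0 scaled). Mybpc2, fast myosin binding protein C, had 945, 1251 and 1419.7 RPKM in the adductor and 64.2, 99.2 and 765 RPKM in the gastrocnemius (-3.15 ± 0.52). The groups did not overlap for either, with gastrocnemius 3 the highest of its muscle. Mylk2, the skeletal myosin light chain kinase, and Actn3, the Z-disc protein of fast fibres, went from medians of 200.4 to 22.8 RPKM and 2661 to 485 RPKM. Pvalb, the calcium buffer parvalbumin, had 3375, 7536 and 14807 RPKM in the adductor and 235, 2003 and 3475 RPKM in the gastrocnemius (-2.54 ± 0.75), with overlap between the muscles. Atp2a1, the calcium pump of fast fibres, went from a median of 8926 to 1959 RPKM (-2.03 ± 0.37). Acta1, the main actin of skeletal fibres, at 13815, 21719 and 28274 RPKM in the adductor and 6622, 18021 and 26293 RPKM in the gastrocnemius, was not called on raw RPKM (-0.49 ± 0.43, limma adjusted p = 0.325) and was called lower on scaled RPKM (-1.30).

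Among channels of the fibre membrane, Scn4a, the sodium channel of the muscle action potential, had 37.3, 66.4 and 101 RPKM in the adductor and 6.67, 8.44 and 47.6 RPKM in the gastrocnemius (-2.37 ± 0.43). Clcn1, the chloride channel that keeps the membrane stable, and the potassium channel Kcna7 had differences of -2.44 ± 0.55 and -2.66 ± 0.52. For these 3 genes gastrocnemius 3 reached into the adductor range. Sln, sarcolipin, an inhibitor of the calcium pump, was the only member of the coupling list that rose, at 4.79, 16.9 and 43.9 RPKM in the adductor and 80.1, 425 and 1020.5 RPKM in the gastrocnemius (4.50 ± 0.66). Without adductor 2 and gastrocnemius 3 the medians were -1.66 for the fast fibre genes and -1.76 for the coupling genes.

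Slow fibre genes divided. Of 10 tested, 5 rose and 3 fell. Casq2, the calsequestrin of slow and cardiac muscle, had 4.06, 8.41 and 22.8 RPKM in the adductor and 87.2, 167 and 228 RPKM in the gastrocnemius (4.10 ± 0.34), and Tnni1, slow troponin I, had 26.5, 39.9 and 70.03 RPKM in the adductor and 278, 520.0 and 819 RPKM in the gastrocnemius (3.62 ± 0.32). Groups did not overlap for either. Tnnt1, Tnnc1 and Atp2a2 also rose. Myh7, the slow myosin heavy chain, had 6.99, 32.8 and 111 RPKM in the adductor and 0.351, 4.58 and 38.3 RPKM in the gastrocnemius (-2.44 ± 0.83), and Myl3, a light chain of slow fibres, had 30.1, 53.4 and 94.2 RPKM in the adductor and 3.39, 5.86 and 48.97 RPKM in the gastrocnemius (-2.50 ± 0.66). Both fell with overlapping groups, and Myl2 fell too.

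Genes of mechanical stress and of muscle atrophy changed in both directions. Of 12 mechanical stress genes 2 rose and 2 fell, and of 12 atrophy genes 2 rose and 3 fell. Over all tested genes 28.3% rose and 8.70% fell. Ankrd1, a stress-responsive titin-binding protein, and Csrp3, a Z-disc LIM protein, rose from medians of 2.51 to 60.4 RPKM and 26.1 to 307 RPKM, while Xirp2 fell from 207 to 46.02 RPKM. The muscles overlapped for Xirp2, whose highest gastrocnemius library, at 333 RPKM, lay above the highest adductor library, at 329 RPKM. Cdkn1a, the cell cycle inhibitor p21, had 6.54, 16.02 and 22.4 RPKM in the adductor and 53.98, 235 and 313 RPKM in the gastrocnemius (3.80 ± 0.49). The ubiquitin ligase genes Trim63 and Fbxo32 of muscle atrophy fell. Metallothioneins Mt1 and Mt2 and the small heat shock protein Hspb7 were called higher on raw RPKM (2.54 ± 0.99, 3.07 ± 0.99 and 1.36 ± 0.50) but not on scaled RPKM (limma adjusted p = 0.162, 0.0637 and 0.429). Mt1 ran from 5.43 to 368 RPKM in the adductor and from 43.0 to 1371 RPKM in the gastrocnemius, so the muscles overlapped. The raw call of Mt1 was lost without adductor 1, 2 or 3 or gastrocnemius 4 or 5 (limma adjusted p 0.055 to 0.0872), and that of Hspb7 without adductor 5 or gastrocnemius 3 or 4 (limma adjusted p 0.0521 to 0.0574). Ctsl, cathepsin L, rose from a median of 47.8 to 187 RPKM.

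Genes of sugar use fell. Of 18 glycolysis and glycogen genes 14 fell, with a median of -0.99 raw and -1.80 scaled. Phkg1 and Phka1, subunits of phosphorylase kinase, had 111, 137 and 213 RPKM in the adductor and 8.66, 19 and 61.6 RPKM in the gastrocnemius (-2.91 ± 0.44) and 103, 138 and 172 RPKM in the adductor and 9.05, 14.9 and 69.01 RPKM in the gastrocnemius (-2.84 ± 0.44). Pygm, muscle glycogen phosphorylase, which that kinase activates, had 1809, 2363 and 3294 RPKM in the adductor and 292, 585 and 1305 RPKM in the gastrocnemius (-2.05 ± 0.37, -2.86 scaled). The muscles did not overlap for these 3 genes. Ckm, muscle creatine kinase, fell from a median of 14124 to 4538 RPKM. Slc2a4, the insulin-responsive glucose transporter GLUT4, had 109, 130.3 and 154 RPKM in the adductor and 16.03, 31.96 and 103 RPKM in the gastrocnemius (-1.96 ± 0.39, limma adjusted p = 1.26e-04, -2.76 scaled). The other 5 gastrocnemius libraries were at 16.0 to 37.7 RPKM, and gastrocnemius 3, at 103 RPKM, was close under the lowest adductor library. Tbc1d4, which gates GLUT4 movement, fell from a median of 9.22 to 2.71 RPKM. Slc2a1, the basal transporter GLUT1, was called higher on raw RPKM (0.89 ± 0.30) and not on scaled RPKM (0.18).

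Counts of mitochondrial genes depended on the scale. Of 21 subunits of complex I, 0 were called by limma on raw RPKM, 1 had an unadjusted p under 0.05 (lower), 0 were called by voom on recovered reads, and 12 were called lower on scaled RPKM. The median differences were -0.33 raw and -1.13 scaled, and on raw RPKM -0.38 in libraries 1 to 3 and -0.31 in libraries 4 to 6. The summed level differed between these sets, at 2482 to 3138 and 5844 to 6401 RPKM in the adductor. In the gastrocnemius it was 1809 to 3435 and 4107 to 5685 RPKM. Neither fit had a term for the sets, which widens the spread, so the lack of raw calls does not show equal levels. Of 23 genes of complexes II to V 3 fell (Sdha, Uqcrb and Atp5c1) and 16 were called lower on scaled RPKM. Uqcrb was not called in 7 and Atp5c1 in 9 of the 12 fits that left out 1 library, with limma adjusted p up to 0.0848 and 0.0846. Of 14 genes of pyruvate dehydrogenase and the citric acid cycle 7 fell and 13 were called lower on scaled RPKM (-0.55 raw and -1.35 scaled). Idh3b, a subunit of isocitrate dehydrogenase, had 95.3, 125 and 147 RPKM in the adductor and 33.9, 54.4 and 126 RPKM in the gastrocnemius (-1.0 ± 0.30). Of 22 genes of fatty acid oxidation 10 fell and 18 were called lower on scaled RPKM. Cpt1b, the gate of fatty acid entry into mitochondria, had 52.9, 61.97 and 71.5 RPKM in the adductor and 15.6, 26.04 and 57.8 RPKM in the gastrocnemius (-1.16 ± 0.28), and Acadm, medium-chain acyl-CoA dehydrogenase, had 64.1, 70.8 and 97.5 RPKM in the adductor and 27.2, 29.6 and 61.5 RPKM in the gastrocnemius (-1.10 ± 0.23). Gastrocnemius 3 alone reached into the adductor range for Cpt1b, and the groups did not overlap for Acadm. Ucp3, a mitochondrial carrier of muscle, fell from a median of 29.9 to 11.8 RPKM (-1.83 ± 0.55). Pdk4, which holds back glucose oxidation, had 44.8, 96.02 and 668 RPKM in the adductor and 16.9, 61.9 and 149 RPKM in the gastrocnemius and was called lower on scaled RPKM (-2.28, limma adjusted p = 0.0155), and on raw RPKM when adductor 1 or 6 or gastrocnemius 4 or 5 was left out (limma adjusted p 0.0348 to 0.0452). Ppargc1a, the coactivator of mitochondrial genes, fell from a median of 5.33 to 2.53 RPKM.

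**Figure D5:**
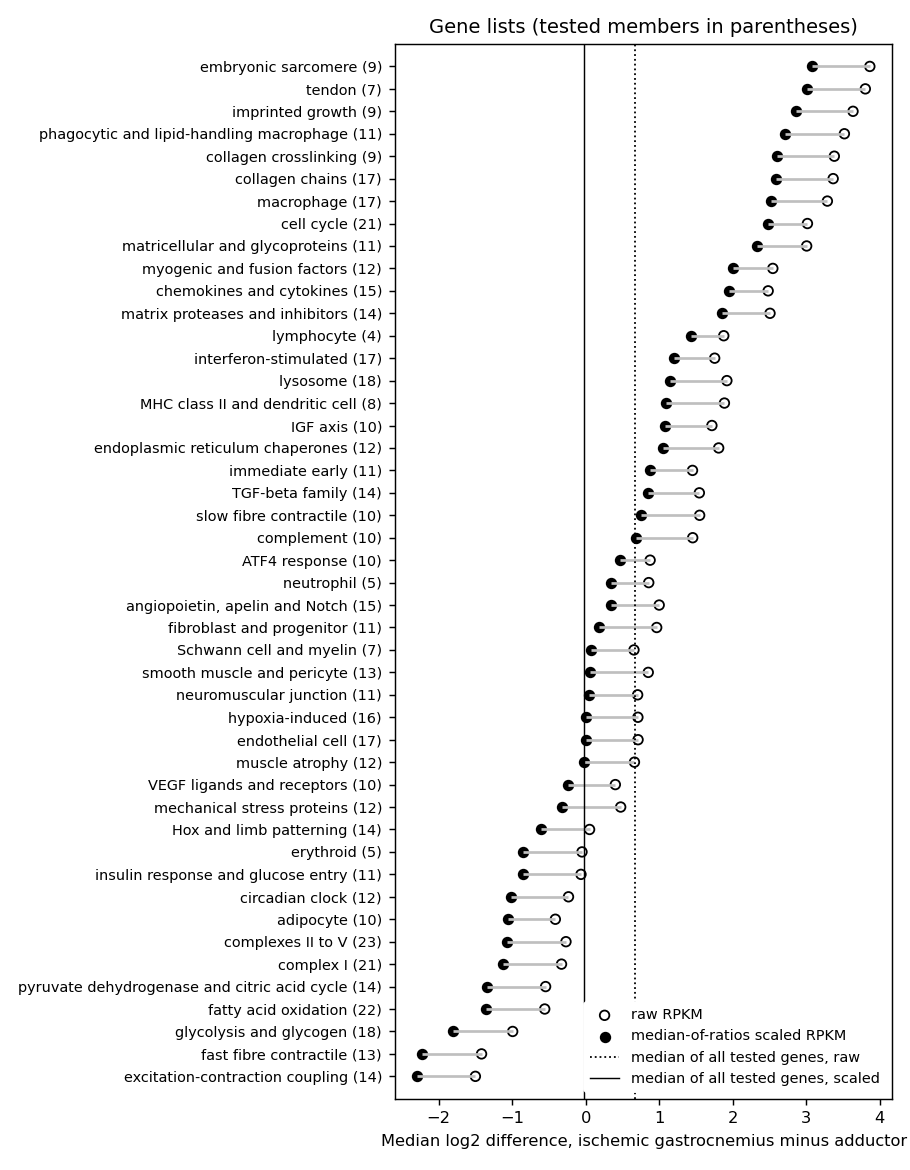
Median log2 difference (gastrocnemius minus adductor) of the tested members of 46 gene lists on raw (open circles) and scaled (filled circles) RPKM, ordered by the scaled median. Vertical lines mark the median of all tested genes, 0.66 raw and -0.02 scaled. Embryonic sarcomere genes are at the top (3.86 raw and 3.08 scaled) and excitation-contraction coupling genes at the bottom (-1.50 raw and -2.29 scaled).

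Vegfa, the main growth factor of new capillaries and a hypoxia target, fell. It had 14.5, 20.5 and 34.5 RPKM in the adductor and 5.83, 8.80 and 13.9 RPKM in the gastrocnemius, a difference of -1.19 ± 0.30 (limma adjusted p = 0.00159) and -1.96 scaled. No gastrocnemius library reached the lowest adductor library, and the difference was -0.96 in libraries 1 to 3 and -1.43 in libraries 4 to 6. Its receptor Kdr had 1.45, 5.97 and 7.76 RPKM in the adductor and 1.93, 5.67 and 10.4 RPKM in the gastrocnemius and was called on neither scale (0.20 ± 0.42 raw, -0.52 scaled). Flt1, which binds VEGF with high affinity, had 4.21, 6.20 and 9.06 RPKM in the adductor and 1.78, 3.80 and 8.29 RPKM in the gastrocnemius and was called lower on scaled RPKM (-1.37), and on raw RPKM without gastrocnemius 1 or 3 (limma adjusted p = 0.0438 and 0.0175). The ligand Pgf and the coreceptors Nrp1 and Nrp2 rose, from medians of 0.867 to 4.87 RPKM, 15.3 to 47.8 RPKM and 1.64 to 5.46 RPKM. Of 10 VEGF ligands and receptors 3 rose and 1 fell (2 of 8 detected in the adductor rose). These counts are near the shares over all tested genes, of which 28.3% rose (20.6% of those detected) and 8.70% fell.

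Of 16 hypoxia-induced genes 9 were called higher on raw RPKM but 2 on both scales, and 4 fell, with a median of 0.71 raw and 0.01 scaled beside 0.66 and -0.02 over all genes. Angptl4, a secreted lipase inhibitor, rose, with 1.02, 3.29 and 5.36 RPKM in the adductor and 10.05, 22.9 and 35.03 RPKM in the gastrocnemius (2.69 ± 0.53) and no overlap between the muscles. Egln1, a prolyl hydroxylase that marks hypoxia-inducible factor for breakdown, fell from a median of 62.1 to 22.1 RPKM (-1.43 ± 0.25), and Bnip3 and Pdk1 fell as well.

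Of 15 tested genes of the angiopoietin, apelin, chemokine and Notch group 6 rose on both scales (5 of 12 detected in the adductor). The chemokine receptor Cxcr4 had 0.819, 2.03 and 4.43 RPKM in the adductor and 10.2, 30.1 and 36.2 RPKM in the gastrocnemius (3.38 ± 0.32) and its ligand Cxcl12 6.86, 11.3 and 16.6 RPKM in the adductor and 30.2, 54.1 and 104 RPKM in the gastrocnemius (2.31 ± 0.28). Apelin, Apln, a peptide of sprouting endothelium, had 0.236, 0.450 and 1.64 RPKM in the adductor and 3.01, 9.44 and 10.98 RPKM in the gastrocnemius (2.85 ± 0.32), and its receptor Aplnr went from a median of 2.23 to 12.9 RPKM. None of these 4 genes overlapped between muscles. Angpt1 and its receptor Tek were not called on raw RPKM, and Angpt1 was called lower on scaled RPKM. Dll4, a Notch ligand, was not called on either scale.

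Endothelial markers moved close to the median of all genes. Of 17 markers 11 were called higher on raw RPKM, 3 of them on both scales and 1 fell, with a median of 0.71 raw and 0.0 scaled. Their summed level was 228 to 351 RPKM in the adductor and 329 to 473 RPKM in the gastrocnemius. Pecam1, which marks all endothelium, had 14.9, 17.04 and 21.5 RPKM in the adductor and 31.6, 34.5 and 45.95 RPKM in the gastrocnemius (1.06 ± 0.15) but was not called on scaled RPKM (0.27, limma adjusted p = 0.101). Plvap, of fenestrated and activated capillaries, had 4.48, 6.95 and 7.83 RPKM in the adductor and 10.6, 30.5 and 38.3 RPKM in the gastrocnemius (1.95 ± 0.26, 1.18 scaled), and Sox18 and Emcn rose with differences of 1.65 ± 0.32 and 1.49 ± 0.23. Aqp1, the water channel of continuous capillaries, had 81.8, 88.9 and 96.9 RPKM in the adductor and 20.9, 28.7 and 69.4 RPKM in the gastrocnemius and fell (-1.40 ± 0.27). Of 13 smooth muscle and pericyte genes 5 rose and 3 fell. Acta2, smooth muscle actin, had 16.8, 26.6 and 41.6 RPKM in the adductor and 39.8, 175 and 294 RPKM in the gastrocnemius (2.48 ± 0.39), and the pericyte genes Pdgfrb, Cspg4 and Mcam rose from medians of 5.21 to 17.9 RPKM, 1.96 to 7.27 RPKM and 7.90 to 28.1 RPKM. Myh11, Cnn1 and Lmod1, which mark contractile smooth muscle, fell. Actin genes are close copies, so reads of Acta2 and Acta1 could not be told apart with certainty.

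Macrophage genes were among the highest groups. Of 17 markers 16 rose (14 of 15 detected in the adductor), with a median of 3.29 raw and 2.51 scaled, and all 11 genes of phagocytic and lipid-handling macrophages rose (3.52 raw and 2.71 scaled), 9 of 9 of those detected. The summed level of the markers was 66.7 to 440.2 RPKM in the adductor and 659 to 2611 RPKM in the gastrocnemius. Cd68, a lysosomal protein of macrophages, had 1.22, 3.56 and 16.2 RPKM in the adductor and 36.8, 122 and 159 RPKM in the gastrocnemius (4.57 ± 0.44, 3.82 scaled). Ms4a7 and the pore protein gene Mpeg1 went from medians of 1.11 to 67.4 RPKM and 1.43 to 67.6 RPKM. Trem2, a lipid receptor of phagocytes, had 0.256, 0.534 and 5.07 RPKM in the adductor and 14.7, 61.9 and 74.2 RPKM in the gastrocnemius (5.22 ± 0.46), and Gpnmb and the galectin Lgals3 went from medians of 1.47 to 67.98 RPKM and 6.39 to 186 RPKM. In all 6 genes the muscles did not overlap. Cd163, a marker of resident macrophages, was the exception of the list, not called on raw RPKM and lower on scaled RPKM. Adductor 2 had the highest summed level of its muscle, 440.2 RPKM against 66.7 to 232 in the other 5, and gastrocnemius 3 the lowest of its own, 659 against 1602 to 2611. Without both, the median of the markers was 3.79, and in libraries 1 to 3 and 4 to 6 it was 2.71 and 3.61.

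Lysosomal genes, which macrophages express at high level, rose in 15 of 18 members. Ctss, cathepsin S, had 3.94, 7.87 and 30.5 RPKM in the adductor and 69.4, 271 and 307 RPKM in the gastrocnemius (4.62 ± 0.41), and Lgmn and Ctsz went from medians of 18.1 to 234 RPKM and 19.3 to 167 RPKM. Of 21 chemokine and cytokine genes 15 were tested and rose, but 10 of them were not detected in the adductor. The 5 detected members all rose, with a median of 2.80 raw and 2.02 scaled, while Il1b, Il6, Tnf, Il10, Cxcl1 and Cxcl2 were too low to be tested. Cxcl16, a membrane-bound chemokine, had 0.523, 0.713 and 3.31 RPKM in the adductor and 7.42, 28.1 and 34.6 RPKM in the gastrocnemius (4.04 ± 0.34), and Ccl2, which draws monocytes, had 0.231, 1.03 and 2.43 RPKM in the adductor and 2.02, 19.2 and 49.1 RPKM in the gastrocnemius (3.59 ± 0.58). Ccl7 and Ccl12 had differences of 3.23 ± 0.58 and 2.92 ± 0.50, and these neighbouring genes are alike in sequence. Gastrocnemius 3 overlapped the adductor for Ccl2 and Ccl7. The anaphylatoxin receptors C3ar1 and C5ar1 rose from medians of 0.768 to 17.6 RPKM and 2.17 to 16.1 RPKM, as did the complement factors Cfb (2.14 ± 0.52) and Cfp (2.13 ± 0.40).

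Interferon-stimulated genes rose in 14 of 17 members (11 of 14 detected in the adductor, 1.96 raw and 1.29 scaled). Isg15, a ubiquitin-like protein, and Irf7, a transcription factor of the interferon response, went from medians of 2.0 to 19.3 RPKM and 2.10 to 17.4 RPKM, and Oasl2 and Bst2 had differences of 2.55 ± 0.32 and 2.50 ± 0.35. Genes of MHC class II and dendritic cells rose in 7 of 8 tested members (6 of 6 detected), among them H2-Aa (1.98 ± 0.33), H2-DMb1 (1.95 ± 0.28) and the invariant chain Cd74, at 47.8, 91.3 and 156 RPKM in the adductor and 179, 313 and 471 RPKM in the gastrocnemius (1.89 ± 0.29). Itgax, of dendritic cells and some macrophages, went from a median of 0.0727 to 4.92 RPKM.

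Markers of other leukocytes were low. Of 11 neutrophil markers 10 were in the table, 5 passed the filter and 1 rose, Csf3r, not detected in the adductor by the rule above, at 0.0714, 0.139 and 0.787 RPKM in the adductor and 0.763, 1.28 and 5.33 RPKM in the gastrocnemius. The defining S100a8 and S100a9 were not called, and the summed level was 2.55 to 14.9 RPKM in the adductor and 2.96 to 27.6 RPKM in the gastrocnemius. Of 13 lymphocyte markers 4 were tested, none of them detected there. Cd4, also found on macrophages, Gzma and Nkg7 rose from medians of 0.228 to 2.73 RPKM, 0.201 to 3.25 RPKM and 0.225 to 2.04 RPKM, while the T cell gene Cd3e had at most 1.03 RPKM in any library of these 12. B cell genes were carried by adductor 5, where the summed level of the list was 19.4 RPKM against 0.318 to 4.89 in the other adductor libraries and 6.23 to 16.5 in the gastrocnemius. Erythroid markers were called by limma in 0 of 5 tested members, 0 had an unadjusted p under 0.05 and 0 were called by voom, and adductor 4 had the highest summed level, 1327 RPKM, against 98.6 to 228 in the other 5. Of 10 adipocyte markers Retn fell (-1.88 ± 0.68, not called without gastrocnemius 4, limma adjusted p = 0.0628), and the defining Adipoq and Plin1 were not called. Of the Schwann cell and myelin genes, Pmp22 and Egr2 rose (1.24 ± 0.20 and 1.91 ± 0.31). The part of these cell types in other results was not tested.

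Genes of the extracellular matrix rose as groups. All 17 collagen chains rose (3.36 raw and 2.58 scaled), 15 of 15 of those detected in the adductor, as did 10 of 11 matricellular proteins and glycoproteins and all 9 tested genes of collagen modification and crosslinking (3.38 raw and 2.60 scaled). Of the detected members of the last 2 lists 9 of 10 and 7 of 7 rose. Col1a1 had 15.8, 29.7 and 274 RPKM in the adductor and 668, 1365 and 3075 RPKM in the gastrocnemius (5.0 ± 0.56, 4.20 scaled), and Col1a2 18.9, 36.5 and 193 RPKM in the adductor and 568, 957 and 1762 RPKM in the gastrocnemius (4.38 ± 0.44). Col5a1 and Col12a1 went from medians of 4.43 to 132 RPKM and 0.397 to 22.1 RPKM, and Fn1, fibronectin, and Thbs2, thrombospondin 2, from 12.3 to 229 RPKM and 1.99 to 45.7 RPKM. None of these 6 overlapped between muscles, and adductor 2 was the highest adductor library for Col1a1, at 274 RPKM. Lox, which crosslinks collagen, had 1.21, 4.34 and 7.09 RPKM in the adductor and 21.5, 82.03 and 177 RPKM in the gastrocnemius (4.30 ± 0.50), the collagen chaperone Fkbp10 rose from a median of 1.73 to 53.3 RPKM, and Loxl3 and P4ha3 had differences of 3.62 ± 0.39 and 3.59 ± 0.38. For the collagen list the median was 3.81 without adductor 2 and gastrocnemius 3, and 3.0 and 3.77 in libraries 1 to 3 and 4 to 6.

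Of 14 matrix proteases and inhibitors 11 rose (6 of 9 detected) and 1, the inhibitor Timp3, fell. Timp1, the inhibitor made in injured tissue, had 0.582, 1.41 and 3.78 RPKM in the adductor and 16.6, 119 and 161 RPKM in the gastrocnemius (5.45 ± 0.53). The membrane protease Mmp14 and the disintegrin protease Adam12 went from medians of 7.33 to 157 RPKM and 0.107 to 8.67 RPKM. In the TGF-beta family 8 of 14 members rose (7 of 12 detected). Tgfb1 itself had 2.18, 4.06 and 10.1 RPKM in the adductor and 19.3, 30.7 and 63.3 RPKM in the gastrocnemius (2.86 ± 0.33), Fstl1 and the latency protein Ltbp2 went from medians of 21.9 to 279.8 RPKM and 0.170 to 7.72 RPKM, and Mstn, myostatin, which restrains muscle growth, fell from 22.4 to 2.003 RPKM (-2.76 ± 0.39).

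All 7 tested tendon genes rose (3.80 raw and 3.01 scaled), 3 of them detected in the adductor, with a summed level of 15.9 to 44.6 RPKM in the adductor and 236 to 564 RPKM in the gastrocnemius. Comp, cartilage oligomeric matrix protein, had 0.163, 0.293 and 0.776 RPKM in the adductor and 9.55, 21.8 and 33.04 RPKM in the gastrocnemius (4.53 ± 0.36), and Tnmd, tenomodulin, the defining marker, had 0.141, 0.589 and 0.950 RPKM in the adductor and 10.8, 13.1 and 22.8 RPKM in the gastrocnemius (3.82 ± 0.25). Fmod and Thbs4 went from medians of 3.51 to 67.7 RPKM and 18.3 to 267 RPKM. These 4 genes did not overlap, and gastrocnemius 3, with 416 RPKM over the list, was not the lowest of its muscle. How much tendon each sample contained is not given in the sources used here. Fibroblast markers rose in 4 of 11 members (0.96 raw and 0.18 scaled), with Pdgfra at 2.38, 3.66 and 7.02 RPKM in the adductor and 10.2, 13.1 and 18.1 RPKM in the gastrocnemius (1.65 ± 0.27), Dpt and Cd34 at 1.50 ± 0.28 and 1.47 ± 0.23, and Mfap5 at 3.32 ± 0.32.

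Imprinted growth genes rose in all 9 members (3.63 raw and 2.85 scaled), 7 of 7 of those detected in the adductor. Igf2, insulin-like growth factor 2 of fetal growth and fibre regeneration, had 6.44, 8.23 and 119.8 RPKM in the adductor and 368, 448 and 585 RPKM in the gastrocnemius (5.12 ± 0.45, 4.33 scaled). H19, the noncoding RNA next to it, had 105, 134 and 1057 RPKM in the adductor and 1633, 2154 and 2853 RPKM in the gastrocnemius (3.53 ± 0.45). The groups did not overlap, and adductor 2 held the highest adductor value of both. Plagl1 and the noncoding RNA Meg3 went from medians of 0.324 to 13.5 RPKM and 2.38 to 47.4 RPKM. In the IGF axis 7 of 10 members rose (5 of 8 detected), among them Igf1 at 3.39, 7.74 and 10.1 RPKM in the adductor and 21.3, 41.3 and 79.9 RPKM in the gastrocnemius (2.58 ± 0.29) and the binding proteins Igfbp2, Igfbp3 and Igfbp4 (3.28 ± 0.28, 2.44 ± 0.30 and 2.93 ± 0.25).

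Of 21 tested cell division genes 20 rose, but 15 of the 21 were not detected in the adductor. Of the 6 detected members 5 rose, with a median of 1.81 raw and 1.06 scaled. Birc5, survivin of the mitotic spindle, had 0, 0.218 and 0.720 RPKM in the adductor and 1.83, 18.8 and 26.2 RPKM in the gastrocnemius (4.22 ± 0.52), Ccna2, cyclin A2, had 0.0536, 0.306 and 0.945 RPKM in the adductor and 3.08, 11.99 and 20.8 RPKM in the gastrocnemius (3.75 ± 0.37), and Top2a and Ccnb2 went from medians of 0.183 to 7.43 RPKM and 0.312 to 11.1 RPKM. Muscles did not overlap for any of the 4, and gastrocnemius 3 had the lowest Birc5 of its muscle. Endoplasmic reticulum chaperones rose in 10 of 12 members, with Sec61a1, the protein channel, and Pdia3 going from medians of 5.16 to 44.5 RPKM and 13.7 to 98.5 RPKM and Pdia4 and Manf differing by 2.31 ± 0.35 and 2.26 ± 0.44. Among 10 ATF4 targets 5 rose (1 of 5 detected in the adductor), beside 28.3% of all tested and 20.6% of all detected genes. Chac1, which degrades glutathione, fell from a median of 42 to 4.79 RPKM (-3.17 ± 0.59). Those that rose included Asns and Psat1, enzymes of asparagine and serine synthesis, from medians of 0.736 to 10.1 RPKM and 0.718 to 11.7 RPKM, and Gdf15 from 0.114 to 3.04 RPKM. Immediate early genes rose in 5 of 11 members (4 of 9 detected), with Junb at 2.91, 7.54 and 8.98 RPKM in the adductor and 14.8, 37.7 and 56.3 RPKM in the gastrocnemius (2.45 ± 0.36), Egr1, Egr3 and Ier2 at 2.31 ± 0.44, 2.04 ± 0.36 and 1.84 ± 0.31, and Nr4a1 falling.

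Patterning genes, which mark position along the limb, differed between the muscles in both directions. Hoxa11, a homeobox gene of the distal limb, had 0.0306, 0.107 and 0.244 RPKM in the adductor and 1.68, 2.29 and 3.44 RPKM in the gastrocnemius (2.22 ± 0.16, limma adjusted p = 1.89e-09, 1.80 scaled). Tbx4, a transcription factor of the hindlimb, had 0.292, 0.687 and 1.53 RPKM in the adductor and 3.23, 4.18 and 5.83 RPKM in the gastrocnemius (1.92 ± 0.27). Neither overlapped, and for Hoxa11 the difference without adductor 2 and gastrocnemius 3 was 2.26. Hoxa11 and Tbx4 were not detected in the adductor by the rule above, so their rise and lack of overlap may be partly set by the filter. Hoxc10 had 24.7, 46.4 and 73.3 RPKM in the adductor and 15.3, 26.9 and 34.4 RPKM in the gastrocnemius (-0.86 ± 0.29), and Hoxd8 12.3, 25.1 and 43.3 RPKM in the adductor and 8.60, 13.6 and 18.3 RPKM in the gastrocnemius (-0.83 ± 0.36). Both fell with overlap, and Hoxd9, Hoxd10 and Tbx15 fell too. The call of Hoxd8 was lost without adductor 4, 5 or 6 or gastrocnemius 1, 2 or 3, with limma adjusted p up to 0.127. Of 14 tested members 2 rose and 5 fell (0 of 11 detected in the adductor rose). Circadian genes fell in 3 of 12: Nr1d1, a repressor of the clock, from a median of 60.2 to 26.2 RPKM (-1.06 ± 0.28), Dbp from 36.8 to 21.4 RPKM and Ciart from 2.39 to 0.914 RPKM. Ciart was not called without adductor 4 or 5 or gastrocnemius 1, 2 or 4 (limma adjusted p 0.051 to 0.066). The labels give no hour of sampling.

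The same contrast in the 12 libraries of diabetic mice, which share no library with it, was set beside it. Both contrasts came from the same limma fit of all 24 libraries. The filter and the spread of each gene were shared, so the calls are not independent. Of the 4582 genes that rose or fell in control mice 4573 had the same direction there and 4358 were also called by limma on raw RPKM. For the 10 highest genes the diabetic differences were 4.82 to 7.02 and for the 10 lowest -3.65 to -2.32. The difference between the contrasts was called by limma for 0 of 12382 genes, with 154 at an unadjusted p under 0.05. That is a smaller share than the 0.05 that chance alone would give, so the test was conservative. The fit had no term for the sets of libraries. The absence of calls therefore does not show that the contrasts are alike. Vegfa differed by -0.58 ± 0.30 in diabetic and -1.19 ± 0.30 in control mice, a difference of 0.61 ± 0.43 between them. Sln differed by 2.80 in diabetic and 4.50 in control mice (-1.70 ± 0.93), and Myog by 5.02 and 4.97 (0.05 ± 0.64).

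The deposited coordinates are on mouse build mm9, and values cover all exons of a transcript. Postn spans chromosome 3 from 54165029 to 54194963 (plus strand), Myog chromosome 1 from 136186581 to 136189125 (plus), Chrng chromosome 1 from 89102386 to 89108410 (plus), Chrna1 chromosome 2 from 73401338 to 73418395 (minus), Scn4b chromosome 9 from 44947125 to 44962144 (plus), Vegfa chromosome 17 from 46153943 to 46162112 (minus), Slc2a4 chromosome 11 from 69755788 to 69761692 (minus), Hoxa11 chromosome 6 from 52192104 to 52195809 (minus) and Igf2 chromosome 7 from 149836673 to 149843386 (minus).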

How the data were processed

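Poly(A) RNA of 12 muscle samples of control mice, 6 adductor and 6 ischemic gastrocnemius, was analysed beside 12 samples of diabetic mice. Per the file headers, the authors deposited RPKM that HOMER computed from exon reads of RefSeq transcripts (mm9). Mouse build mm9, TopHat and HOMER are named in the submitters' processing notes, without versions. The headers show no strand option, so antisense and overlapping genes could not be told apart, and the treatment of reads that match several places is not given in the sources used here. The labels name different sequencer models, so the instrument is uncertain.

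For each of 24016 symbols the transcript with the highest mean was kept. Genes with at least 1 RPKM in at least 6 of the 24 libraries were tested (12382). Values were fitted as log2(RPKM + 0.5) with limma 3.58.1 (R 4.3.3), using a mean for each of 4 groups and a variance trend. Benjamini-Hochberg adjustment covered all tested genes, and calls were made at 0.05. The scaled values used median-of-ratios factors from 12754 genes. Reads recovered from RPKM, length and library total were whole within 0.01 for 99.97% of values above 0, and were fitted with voom as an alternative. The code was tested on simulated data. The libraries held 8.48 to 15.61 M reads, and floors of 3 reads cover counting error only.

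Named genes were the 10 highest and 10 lowest called on both scales with groups that did not overlap and at least 5 RPKM in the higher muscle, up to 4 called members of each of 46 lists with at least 2 RPKM, a set of vessel, fibre and patterning genes, and the most abundant transcripts. A few genes that met these rules are not reported here. Members named beside these only as called or not called were chosen after their values were seen. The comparison, lists and rules were chosen with earlier results of these data known. The 30 replicate pairs differed beyond sampling noise (chi-square per degree of freedom of at least 13.9), so the spread between libraries exceeded the counting error. The labels tie no number to an animal. Same-numbered samples of both muscles deviated together in all 6 pairs (r 0.552 to 0.736 over genes), but within the sets of libraries r was -0.0901 to 0.471 and other numbers reached 0.609 to 0.750. Alternatives changed the scaling, pseudocount, filter, samples, set term, replicate block and model.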

Additional observations from a re-analysis of the deposited data

Results flagged for a closer look

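In 65 of 378 groups of 6 libraries the highest or lowest library lay farther from the rest on the log2 scale than Dixon's 95% limit for 6 values allows. The groups were the 185 genes named above in each muscle, with the shares of reads, the scale factors and the depths. Chance alone marks about 1 in 20 such groups. Adductor 2 accounted for 27 and gastrocnemius 3 for 38, and no other library was marked. The RPKM of the marked library is given before the range of the other 5.

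Adductor 2 was above the other adductor libraries for Postn 89.04 (2.62 to 5.002), Tmem8c 11.5 (0 to 0.988), Spp1 12.9 (0.531 to 1.95), Mest 22.97 (0.694 to 1.94), Cthrc1 3.91 (0.170 to 0.800), C1qtnf3 8.78 (0.277 to 0.674) and Tnc 6.58 (0.262 to 0.568). It was also above them for Tnnt2 18.04 (0.680 to 2.78), Myl4 66.3 (4.10 to 9.20), Mmp13 0.392 (0 to 0.0740), Myh8 35.5 (3.003 to 5.34), Gm7325 1.98 (0 to 0.356), Chrng 1.16 (0 to 0.103) and Csf3r 0.787 (0.0714 to 0.189). Further high values of this library were Gzma 1.04 (0.110 to 0.318), Itgax 1.39 (0.0231 to 0.117), Egr2 0.990 (0.178 to 0.389), Col12a1 2.92 (0.118 to 0.602), P4ha3 0.711 (0.0394 to 0.168), Adam12 1.89 (0.0364 to 0.186) and Top2a 1.63 (0.115 to 0.412). Among the remaining genes it had Cxcl16 3.31 (0.523 to 0.747), Psat1 2.48 (0.557 to 0.866), Igf2 119.8 (6.44 to 10.7), Plagl1 4.61 (0.183 to 0.345), Meg3 11.6 (1.70 to 3.10) and H19 1057 (105 to 177).

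Gastrocnemius 3 was above the other gastrocnemius libraries, toward the adductor, for Scn4b 47.7 (1.40 to 3.87), Mylk4 149 (7.28 to 12.1), Aqp4 2.19 (0.0502 to 0.164), Kcng4 2.51 (0.0224 to 0.186), Rasd2 19.2 (0.958 to 2.18), Mybpc2 765 (64.2 to 143) and Mylk2 107 (10.6 to 24.6). The same library was high for Actn3 1564 (355 to 554), Kcna7 29.1 (2.79 to 6.16), Scn4a 47.6 (6.67 to 13.2) and Phka1 69.01 (9.05 to 19.1). It was below them, also toward the adductor, for Tmem8c 30.6 (151 to 235), Spp1 34.1 (167 to 345), Tnnt2 52.9 (200.5 to 292), Myl4 179 (542 to 893), Gm7325 6.86 (34.7 to 84.7), Msc 2.90 (8.33 to 15.1) and Chrng 5.98 (23.3 to 40.99). Low values were also found for Chrna1 23.5 (95.7 to 108), Cdkn1a 53.98 (225 to 313), Ctsl 61.2 (173 to 198), Cxcr4 10.2 (25.8 to 36.2), Apln 3.01 (7.04 to 10.98), Plvap 10.6 (25.8 to 38.3) and Ms4a7 15.1 (57.7 to 78.03). Further below the range of its muscle were Cd68 36.8 (94.2 to 159), Trem2 14.7 (50.9 to 74.2), Lgals3 40.9 (158 to 235), Timp1 16.6 (93.2 to 161), Birc5 1.83 (12.9 to 26.2), Ctss 69.4 (202 to 307) and Lgmn 66.6 (222 to 289). Also low in this library were Ctsz 61.6 (153 to 212), Cxcl16 7.42 (21.7 to 34.6), Ccl2 2.02 (16.2 to 49.1), Ccl7 1.11 (13.7 to 36.4), Junb 14.8 (35.8 to 56.3) and Asns 3.92 (8.51 to 13.1).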

How the results depend on the processing

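Against 6730 genes called higher and 1077 lower on raw RPKM, 3505 and 3285 were called with median-of-ratios scaling, 3158 and 3503 with quantile normalization (47.4% of the called genes higher), and 4196 and 4291 with the replicate block and that scaling together, a combination chosen after the data were seen, as were leaving out both displaced libraries and taking the top transcripts of each library. Leaving the 50 most abundant transcripts out of the totals made 79.3% of the called genes higher. A filter at 5 RPKM called 4089 higher among fewer genes (7952). In libraries 1 to 3 alone 6938 were called higher and 502 lower, and in libraries 4 to 6 alone 6376 and 1541; the cause was not tested. Of 178 named called genes 157 and 175 kept their call in these fits. Leaving out single libraries gave 6265 to 6855 higher and 941 to 1176 lower, a share in the top transcripts of the adductor that differed by -11.1 to -8.64 percentage points and 287 to 390 more transcripts holding 50% of the reads.

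The fit with the replicate number as a block called 7831 higher and 1399 lower, beside 7910 and 1444 with the set term. The labels tie no number to an animal, so the block is not known to pair muscles of 1 mouse. All 178 kept their call with the block. They also did with the set term, either other pseudocount and voom. With the scaling 173 and with quantile normalization 174 of the 178 kept their call. Kdr, at 0.20 on raw RPKM, was at -0.52 with the scaling alone, where it was not called. With the block and scaling together it was again at -0.52 and was called (limma adjusted p = 0.0478). Why only the last fit called it was not tested. The call of Tpm1, lower on raw RPKM, was lost without adductor 4, 5 or 6 or gastrocnemius 1 or 2, with limma adjusted p of 0.0706 to 0.103. Depth limits the low adductor values of genes such as Chrng and Tmem8c, which are near the floor.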
